A study of Mus musculus with 8 samples.

Results

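The genes described here lie on mouse chromosome 12 on either side of Sox11, the gene inactivated in the mutant embryos of this study. They were chosen by position from a list of 39 symbols. Of these, 38 had a probe set with exactly 1 gene symbol and were measured, among 19356 genes in all. For Rock2 no such probe set was found, and its expression is not analysed here. In the gene order of RefSeq's GRCm38.p6 annotation 25 of the 38 precede Sox11, towards the centromere, and 13 follow it, towards the telomere. The 2 outermost, Trib2 and Fam110c, bound a span of 56 measured genes including Sox11 itself, and 17 genes of this span are not on the list.

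RNA came from the caudal part of the urogenital ridge at E10.75, when the ureteric bud starts to leave the nephric duct. Sox11-/- embryos gave 4 replicates and wildtype embryos gave 4, all from mice of mixed genetic background with no treatment, and each was hybridised to an Affymetrix whole-transcript array. The sources used here do not state the targeting construct, the strains behind the mixed background, or whether embryos were pooled for an array. All values below are log2 signals or differences of log2 signals, knockout minus wild type, tested with limma over all genes.

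A targeted allele is inherited together with the DNA around it. In a mixed background the neighbours of a knocked-out gene therefore tend to carry the alleles of the strain in which the gene was targeted, while wild type embryos can carry others. Neighbours can also respond to the altered locus itself or, like any other gene, to loss of the encoded protein, here a transcription factor of the SoxC group. In these 8 arrays the Sox11 genotype and the alleles linked to it cannot be told apart.

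The arrays correlated at 0.987 to 0.995 with each other across genes, which are not independent replicates, and no 2 held identical values. Sox11 was 9.24, 9.13, 8.93 and 9.12 in the knockout arrays and 11.76, 11.81, 11.72 and 11.86 in the wild type arrays. It fell by 2.69 log2 units (limma adjusted p = 6.36e-08), so the signal of the targeted gene goes with the labels. Where its probes lie relative to the deleted part is unknown here. Nephric duct markers had levels above the median of all genes in 6 of 7 cases and markers of metanephric and nephrogenic mesenchyme in 8 of 8. The per-array mean of the duct markers was 9.20 to 9.31 in knockout and 9.03 to 9.19 in wild type arrays. That of the mesenchyme markers was 10.13 to 10.21 in knockout and 10.28 to 10.39 in wild type arrays. The means of neither list overlapped between the genotypes, though the closest duct means, 9.200 in knockout and 9.194 in wild type, were nearly equal. Single markers were mixed. The arrays did not overlap for 3 of 7 duct markers, all higher in knockout, and for 2 of 8 mesenchyme markers, both lower. Of the duct markers 2 of 7 were below 0 (Pax2 at -0.20 and Pax8 at -0.02). Of the mesenchyme markers 6 of 8 were, with Osr1 (0.12) and Hoxa11 (0.04) above 0. Only Ret (0.41) and Six2 (-0.48) passed at an adjusted p under 0.05. The part of these cell types in the changes below was not tested. In bulk tissue such as this, fewer cells of a type and less RNA per cell cannot be told apart. Means of neuronal, erythroid, endothelial, muscle and macrophage markers overlapped between the genotypes. All 5 muscle markers had positive differences, and the arrays did not overlap for Des (0.38, limma adjusted p = 0.0600) and Myog (0.21, limma adjusted p = 0.170), though none of the 5 passed.

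Among the 38 neighbours, 2 were lower and 1 was higher in knockout ridges at an adjusted p under 0.05. Alkal2 rose, and Asap2 and Rnf144a fell. This is 7.89% of the neighbours, where 1.44% of all genes passed, 1.08% as lower and 0.362% as higher. The neighbours were brighter, with a median level of 8.18 beside 7.55 for all genes. In a fit of only genes above the 25th percentile of level, 3 of 33 neighbours and 2.34% of all genes passed. At an unadjusted p under 0.05 there were 12 of 38 neighbours (31.6%), 9 lower and 3 higher, beside 16.7% of all genes. The knockout and wild type arrays did not overlap for 6 of 38 (15.8%), beside 10.5% of all genes. Differences were small: the median was -0.10 and all but 1 lay between -0.49 and 0.29, while the median over all genes was -0.0005. The median absolute difference was 0.14 for the neighbours and 0.096 for all genes, and the median SE was 0.090 and 0.085. These are counts over a list chosen with results of these data known, and they are given as a description.

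**Figure D1:**
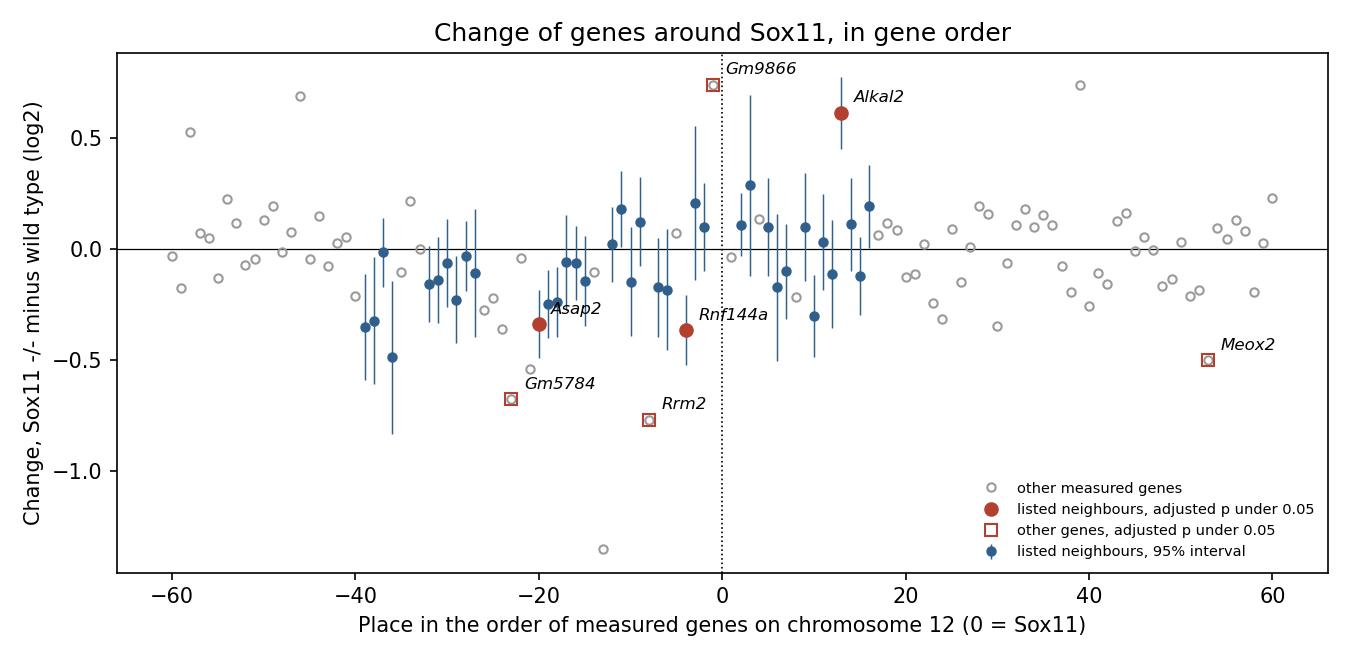
Change (log2, knockout minus wild type) of measured genes within 60 places of Sox11 in gene order. Blue points are the listed neighbours with 95% intervals, red points those at an adjusted p under 0.05, grey circles other genes and red squares other genes at an adjusted p under 0.05. Most neighbours left of Sox11 lie below 0, Alkal2 stands at 0.61 to its right, and Sox11 itself (-2.69) is not drawn.

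Alkal2 encodes a secreted ligand of the receptor tyrosine kinases ALK and LTK. Its signal was 7.39, 7.25, 7.32 and 7.25 in the knockout arrays and 6.66, 6.83, 6.70 and 6.56 in the wild type arrays. Every knockout array was thus above every wild type array. Alkal2 rose by 0.61 (SE 0.07, 95% interval 0.45 to 0.78), or 1.53-fold, with a limma adjusted p of 0.00309. It passed in each of the 8 fits that left out 1 array (adjusted p at most 0.0158) and under all 9 other alternatives (at most 0.0226), and no other neighbour did. Its receptor genes and its relative, looked up after the result was seen, did not pass: Alk was at 0.05, Ltk at 0.13 and Alkal1 at -0.08 (limma adjusted p = 0.794, 0.433 and 0.684). Their signals were low, with means of 6.21, 6.31 and 5.87 beside a median of 7.55 over all genes, so a change could be missed. Alkal2 is the 13th measured gene from Sox11 on the telomere side. The 12 genes between them include none at an adjusted p under 0.05.

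Rnf144a encodes a ubiquitin ligase of the RING-between-RING class. It had 9.36, 9.40, 9.26 and 9.32 in the knockout arrays and 9.56, 9.75, 9.78 and 9.73 in the wild type arrays. The groups did not overlap, and wild type replicate 1 was the closest to the knockout arrays. Rnf144a fell by 0.36 log2 units (SE 0.07, limma adjusted p = 0.0368), which is 1.29-fold lower. Asap2, an Arf GTPase-activating protein, had 8.88, 8.92, 8.95 and 8.88 in the knockout arrays and 9.12, 9.37, 9.26 and 9.23 in the wild type arrays. It fell by 0.34 log2 units (SE 0.07, limma adjusted p = 0.0437), or 1.26-fold, again without overlap. Both calls are weak: of the 8 fits without 1 array, each gene passed only in the fit without wild type replicate 1, and the highest adjusted p was 0.112 for Rnf144a and 0.132 for Asap2. Both also missed the threshold after a further quantile normalization, when every probe set was tested, with the replicate number as a block, and with a covariate for Y-linked signal (adjusted p up to 0.0953 for Rnf144a and 0.0923 for Asap2). Of 5 relatives of Rnf144a in its ligase class none passed at an adjusted p under 0.05, and 1 (Rnf19b, -0.22) had an unadjusted p under 0.05.

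Directly after Asap2 in the gene order come Itgb1bp1, whose product binds the tail of beta1 integrin, and Cpsf3, the endonuclease that cuts pre-mRNA before polyadenylation. Itgb1bp1 had 7.68, 7.66, 7.68 and 7.89 in the knockout arrays and 7.94, 7.98, 7.999 and 7.98 in the wild type arrays. Cpsf3 had 10.68, 10.65, 10.50 and 10.52 in the knockout arrays and 10.79, 10.76, 10.81 and 10.93 in the wild type arrays. Neither gene overlapped between the genotypes, yet neither passed: Itgb1bp1 was at -0.25 (SE 0.07, limma adjusted p = 0.114) and Cpsf3 at -0.24 (SE 0.07, limma adjusted p = 0.130). These 3 consecutive genes had differences of -0.34, -0.25 and -0.24, while the next 3 neighbours, Iah1, Adam17 and Ywhaq, were at -0.06, -0.06 and -0.14 with overlapping arrays.

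Itgb1bp1 and Cpsf3 are read in opposite directions from start sites that face away from each other. Their promoter windows, 250 bases before to 50 bases after the start in RefSeq's table for GRCm38.p6, share 112 bases. The sequences are shown because these neighbours had near-equal differences, and the capitals mark the shared bases, which are reverse complements of each other. The Itgb1bp1 window is chr12:21286235-21286534 on the minus strand and the Cpsf3 window chr12:21286047-21286346 on the plus strand, both printed 5′ to 3′.
Itgb1bp1: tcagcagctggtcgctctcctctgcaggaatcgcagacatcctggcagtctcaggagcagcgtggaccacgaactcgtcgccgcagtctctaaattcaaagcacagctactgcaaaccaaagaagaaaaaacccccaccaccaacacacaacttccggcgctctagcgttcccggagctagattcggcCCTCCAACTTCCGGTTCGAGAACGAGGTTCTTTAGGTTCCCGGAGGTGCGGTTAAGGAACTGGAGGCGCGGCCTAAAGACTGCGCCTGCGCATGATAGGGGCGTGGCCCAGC
Cpsf3: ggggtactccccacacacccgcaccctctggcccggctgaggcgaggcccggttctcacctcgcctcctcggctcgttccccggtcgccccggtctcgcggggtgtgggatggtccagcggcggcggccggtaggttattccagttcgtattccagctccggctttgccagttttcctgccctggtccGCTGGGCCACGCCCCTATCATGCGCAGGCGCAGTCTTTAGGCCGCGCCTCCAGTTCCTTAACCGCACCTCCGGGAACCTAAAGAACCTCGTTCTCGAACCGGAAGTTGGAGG

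The promoter windows of Alkal2 (chr12:30884074-30884373, plus strand) and Rnf144a (chr12:26415213-26415512, minus strand) are shown because their genes passed the test in opposite directions. Here the capitals mark the 50 bases from the start site on.
Alkal2: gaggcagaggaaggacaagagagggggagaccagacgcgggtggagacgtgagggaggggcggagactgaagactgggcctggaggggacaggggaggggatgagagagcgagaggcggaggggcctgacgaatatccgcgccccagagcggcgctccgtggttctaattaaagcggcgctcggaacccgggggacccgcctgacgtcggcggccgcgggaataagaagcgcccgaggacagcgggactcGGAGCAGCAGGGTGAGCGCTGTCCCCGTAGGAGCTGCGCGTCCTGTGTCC
Rnf144a: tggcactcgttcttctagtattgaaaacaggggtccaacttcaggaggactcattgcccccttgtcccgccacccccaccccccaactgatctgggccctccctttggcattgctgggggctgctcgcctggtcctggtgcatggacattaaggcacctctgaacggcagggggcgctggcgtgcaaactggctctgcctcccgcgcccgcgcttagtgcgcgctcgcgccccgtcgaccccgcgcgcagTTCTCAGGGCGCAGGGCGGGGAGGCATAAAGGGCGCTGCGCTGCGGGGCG

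ACAAAG and ACAATG, cores of the kind of site that SOX proteins bind, were searched on both strands. Both begin with ACAA, and a window with either was counted as 1. Neither was found in the 4 windows above, nor in that of Pxdn. Asap2 had no window and was not searched. The 36 of 39 neighbours with a window in the table include Rock2 but not Asap2, Adi1 and Rnaseh1. Among these 36, 3 (8.33%) held at least 1 of the motifs: Allc, Cmpk2 and Adam17. Over the first listed window of each of 27025 genes the share was 28.8%. The windows of the neighbours also had a higher GC content, with a median of 63% beside 52.7% for all genes. A window without these letters says nothing of binding elsewhere.

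**Figure D2:**
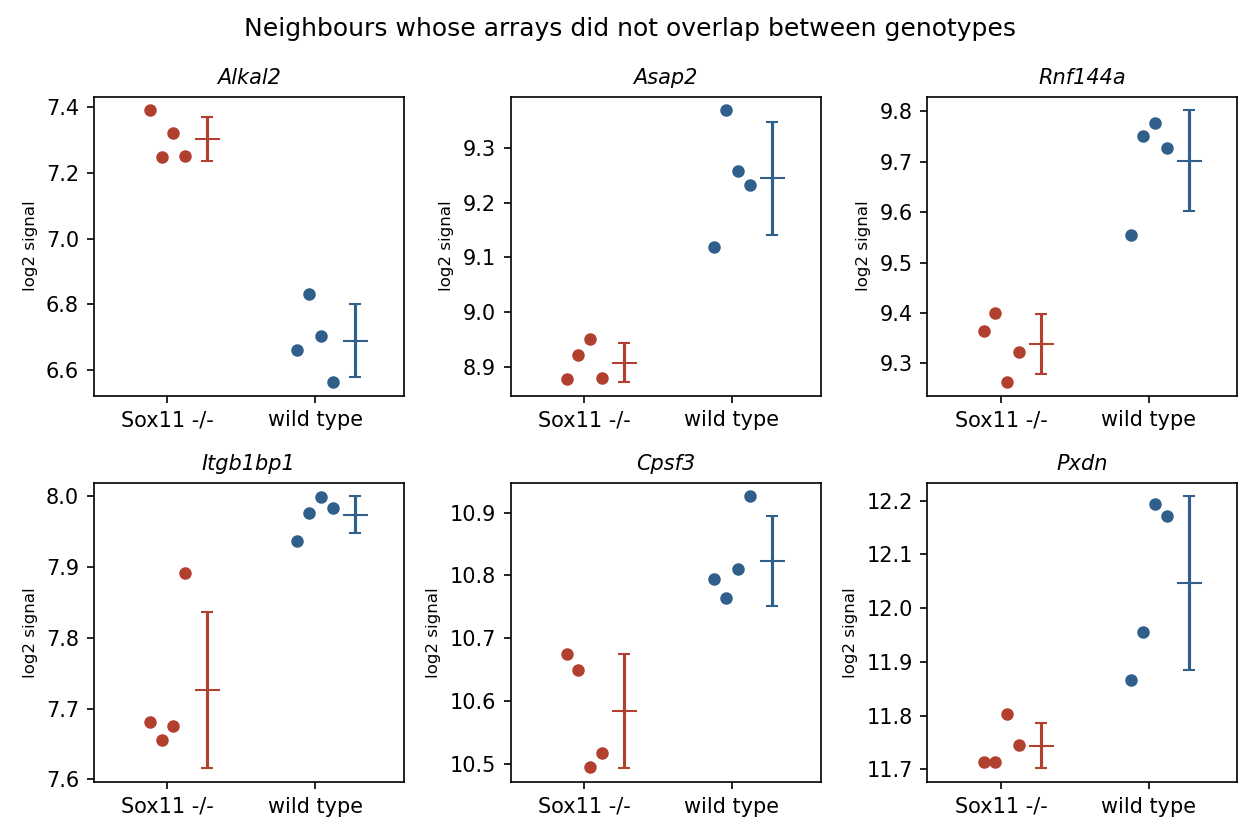
Log2 signal per array for the 6 neighbours whose arrays did not overlap between Sox11 -/- (red, left) and wild type (blue, right), 4 arrays each, with the mean and SD beside the points. Alkal2 was higher in the knockout and the other 5 were lower.

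The last of the 6 neighbours without overlap was Pxdn, which encodes peroxidasin, an enzyme that cross-links collagen IV in basement membranes. It had 11.71, 11.71, 11.80 and 11.75 in the knockout arrays and 11.87, 11.96, 12.19 and 12.17 in the wild type arrays. The knockout arrays lay within 0.1 of each other and the wild type arrays were spread over a wider range. Pxdn was at -0.30 (SE 0.08, limma adjusted p = 0.110).

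Next to Sox11 itself the listed genes showed no called change other than that of Rnf144a. On the centromere side Cmpk2 and Rsad2 are the closest. Rsad2 encodes viperin, an antiviral enzyme, and Cmpk2 a mitochondrial nucleotide kinase, and both are known as interferon-induced genes. Rsad2 had 7.39, 6.77, 7.29 and 7.14 in the knockout arrays and 6.67, 6.74, 7.21 and 7.14 in the wild type arrays, with a difference of 0.21 (95% interval -0.14 to 0.55, limma adjusted p = 0.529). Cmpk2 had 7.79, 7.66, 7.59 and 7.67 in the knockout arrays and 7.44, 7.57, 7.82 and 7.47 in the wild type arrays, with a difference of 0.10 (95% interval -0.10 to 0.30, limma adjusted p = 0.601). Both sets of arrays overlapped. Of 13 other interferon-response genes measured none passed at an adjusted p under 0.05, and 3 had an unadjusted p under 0.05 (Ddx58 at 0.50, Usp18 at 0.34 and Ifit2 at -0.46). Of the 13, Ifit2 alone was below 0, and the median difference was 0.08.

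Farther out on this side, Kidins220, a scaffold of neurotrophin receptors, had 9.65, 9.74, 9.69 and 9.75 in the knockout arrays and 9.68, 9.67, 9.95 and 10.27 in the wild type arrays (difference -0.18, limma adjusted p = 0.478). Mboat2, a lysophospholipid acyltransferase, had 9.46, 9.57, 9.57 and 9.60 in the knockout arrays and 9.60, 9.48, 9.83 and 9.96 in the wild type arrays (difference -0.17, limma adjusted p = 0.420). In both genes wild type replicates 3 and 4 were above all other arrays.

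On the telomere side Allc, the allantoicase gene, had 5.53, 5.41, 5.52 and 5.51 in the knockout arrays and 5.44, 5.38, 5.42 and 5.29 in the wild type arrays, which overlapped (difference 0.11, limma adjusted p = 0.420). Its mean level of 5.44 was at percentile 0.568 of all genes, among the dimmest measured. Colec11 encodes a collectin of the lectin pathway of complement. It had 7.42, 6.53, 6.81 and 7.12 in the knockout arrays and 6.76, 6.93, 6.75 and 6.31 in the wild type arrays. Its difference of 0.29 had a 95% interval of -0.12 to 0.70, the widest among the 38 neighbours, and a limma adjusted p of 0.460. None of 8 other collectin and lectin-pathway genes passed, and Colec12 at 0.28 had the lowest unadjusted p (0.00958).

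Rnaseh1, which removes RNA from RNA-DNA hybrids, had 7.02, 7.30, 7.27 and 7.32 in the knockout arrays and 7.30, 7.21, 7.10 and 6.91 in the wild type arrays (difference 0.10, limma adjusted p = 0.644). None of the 3 RNase H2 subunit genes passed, although the arrays of Rnaseh2a did not overlap (-0.43, limma adjusted p = 0.0620). Adi1, an enzyme of methionine salvage, had 8.69, 8.55, 8.60 and 8.44 in the knockout arrays and 8.42, 8.51, 9.21 and 8.83 in the wild type arrays (difference -0.17, limma adjusted p = 0.590). Trappc12, a subunit of a vesicle tethering complex, had 9.26, 9.39, 9.25 and 9.18 in the knockout arrays and 9.39, 9.10, 9.54 and 9.44 in the wild type arrays (difference -0.10, limma adjusted p = 0.635). All 3 overlapped between genotypes. None of 11 other TRAPP genes passed, and 2 had an unadjusted p under 0.05 (Trappc4 at -0.23 and Trappc10 at -0.17).

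The genes of both sides differed in their balance. Of the 25 neighbours on the centromere side 20 were below 0, with a median of -0.14, and of the 13 on the telomere side 5 were below 0, with a median of 0.10. Over all genes 50.1% were below 0. The sides also differed in signal level, with medians of 8.91 on the centromere side and 7.18 on the telomere side, beside 7.55 over all genes. From Trib2 to Ywhaq, 16 consecutive listed neighbours had negative differences, from -0.49 to -0.01. Of these Asap2 alone passed, and Greb1 (-0.49), Trib2 (-0.35), Lpin1 (-0.32), Nol10 (-0.23), Itgb1bp1 and Cpsf3 had unadjusted p-values of 0.00493 to 0.0301. Some of the 16 sat close to 0, and the signs of Ntsr2, Odc1, Atp6v1c2 and Iah1 turned in at least 1 fit that left out an array. Unlisted genes among them include Pqlc3 at 0.21, so the whole stretch was not on 1 side. The balance of the sides and the part of signal level in it were not tested.

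Several of these genes have well-known roles. Greb1, an estrogen-induced gene, had 7.70, 8.18, 7.61 and 7.43 in the knockout arrays and 8.48, 8.05, 8.05 and 8.29 in the wild type arrays, where knockout replicate 2 alone lay within the wild type range. Its limma adjusted p was 0.157, and it was 0.0435 without knockout replicate 2. Greb1 passed in only this 1 of the 8 fits without 1 array, where the limma adjusted p reached 0.343. It passed in 0 of 9 other alternatives. Trib2, a Tribbles pseudokinase, had a limma adjusted p of 0.146, and Lpin1, a phosphatidate phosphatase of lipid synthesis, 0.244. Grhl1, an epithelial transcription factor, and Fam110c had positive differences with unadjusted p-values of 0.0421 and 0.0446 (0.18 and 0.19, limma adjusted p = 0.276 and 0.284). Both were dim, with mean levels at percentiles 27.6 and 7.39 of all genes. Myt1l, a zinc finger factor of neurons, was at 0.10 (limma adjusted p = 0.672). Of 13 other genes of neurons and of its family 10 were below 0. Among those above 0 were its relatives Myt1 (0.24) and St18 (0.11, limma adjusted p = 0.313 and 0.727). The microtubule-binding gene Dcx fell by 0.93 log2 units (limma adjusted p = 0.0384). All 7 neuronal markers, which are among these 13 genes, had negative differences. The per-array mean of these markers was 7.28 to 7.84 in knockout and 7.80 to 8.19 in wild type arrays. The part of neuron content in the value of Myt1l was not tested.

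**Figure D3:**
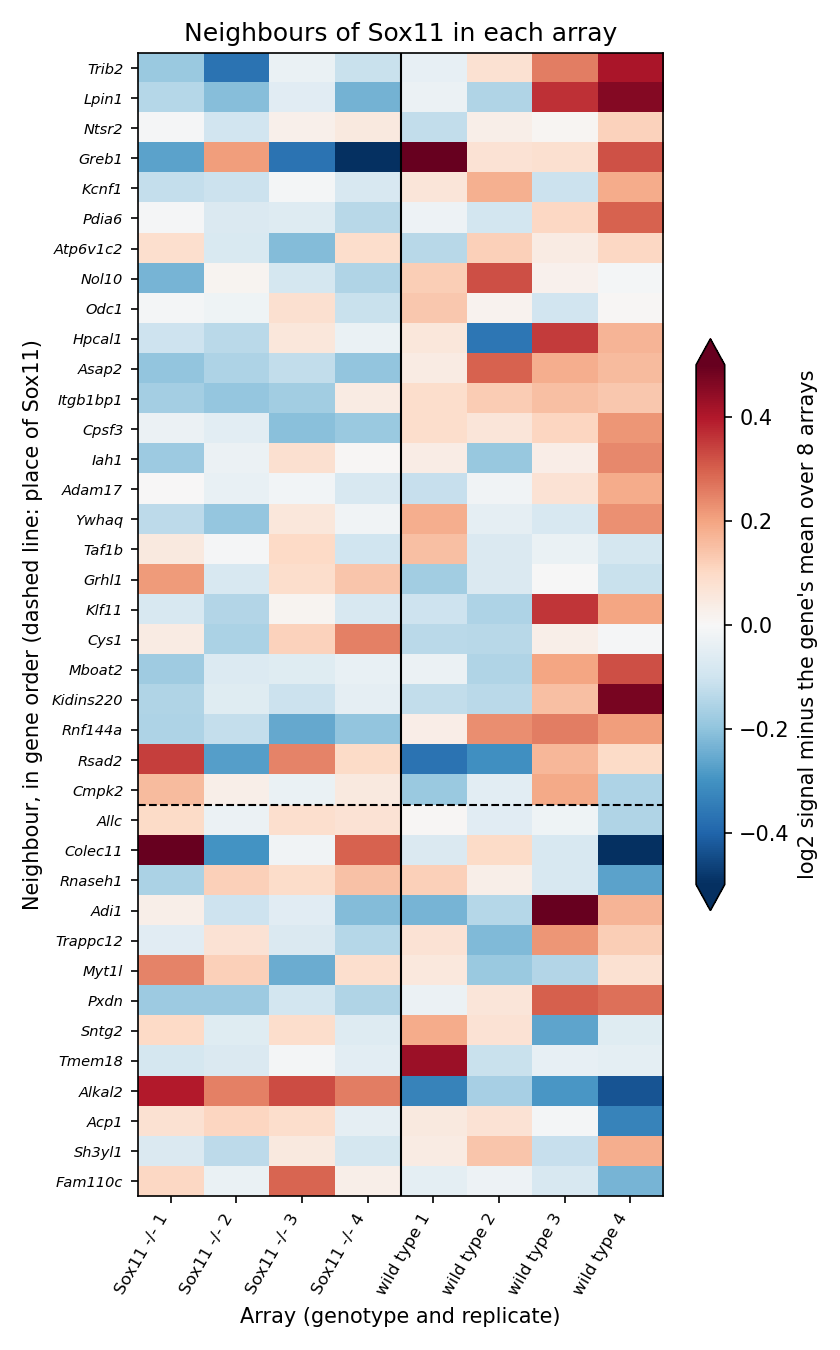
Log2 signal of the 38 measured neighbours in each of the 8 arrays, as the difference from the gene's mean over all arrays, with genes in their order along chromosome 12 and a dashed line at the place of Sox11. Colours end at -0.5 and 0.5. Wild type replicates 3 and 4 hold many of the highest values.

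The wild type arrays differed among themselves at the neighbours more than the knockout arrays did. The SD within the genotype had a median of 0.086 over the 38 genes in knockout and 0.16 in wild type arrays, and the wild type SD was the larger in 29 of 38 genes (76.3%). Over all genes these medians were 0.10 in knockout and 0.12 in wild type, and the wild type SD was the larger in 61.3%. The neighbours were not alone in this: among the 17 other genes of the span the median SD was 0.10 in knockout and 0.21 in wild type arrays and the wild type SD was the larger in 64.7%, and on chromosome 12 outside the span it was the larger in 65.8%. In 15 of the 38 neighbours (39.5%) wild type replicates 3 and 4 were both above replicates 1 and 2, beside 3 of the 17 other genes of the span (17.6%), 19.7% of genes on chromosome 12 outside it and 20.4% of all genes. The reverse held for 7 neighbours (18.4%), beside 3 of the 17 other genes of the span (17.6%) and 17.3% of all genes. This count was made after the values were seen, the labels make no distinction among the wild type replicates, and its cause was not tested. Lpin1 is an example, with 7.34, 7.27, 7.43 and 7.25 in the knockout arrays and 7.45, 7.33, 7.85 and 7.94 in the wild type arrays. Adi1, Kidins220, Mboat2 and Pxdn above show the same order. The mean signal of Y-linked genes was 10.06, 5.31, 5.42 and 5.58 in wild type replicates 1 to 4. In knockout replicates 1 to 4 it was 5.34, 5.37, 9.88 and 9.84. The part of embryo sex in the order of the wild type arrays was not tested.

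Acp1, a low molecular weight phosphatase, had 5 probe sets, and Odc1, the first enzyme of polyamine synthesis, had 2, while the other 36 neighbours had 1 each. The probe sets of Acp1 disagreed. For 4 of them, among these the one with the highest mean, the difference was 0.07 to 0.13. The fifth (probe set 10399820) had 8.41, 7.85, 8.06 and 7.96 in the knockout arrays and 7.92, 8.21, 9.26 and 9.77 in the wild type arrays, a difference of -0.72 (SE 0.35, limma adjusted p over all probe sets = 0.349). Its wild type replicates 3 and 4 were above every other array. The second probe set of Odc1 (10394770) was at -0.30 and the one used here at -0.03, and neither passed. The number 10394770 lies between those of Nol10 (10394749) and Hpcal1 (10394778), and 10399820 of Acp1 soon follows that of Sntg2 (10399801). The probe sets used here, 10582295 for Odc1 and 10606532 for Acp1, are numbered far from those of the other 36 neighbours. So are the further Acp1 probe sets 10355401, 10491883 and 10557199, which leaves 10399820 alone among the numbers of the neighbours. The number 10606532 lies between those of Alas2 (10602372) and Dcx (10607156), both on chromosome X. The agreement of 4 Acp1 probe sets therefore does not outweigh the fifth. The sources used here do not state which of these probe sets read only the gene beside Sox11. The values of Acp1 and Odc1 are uncertain for that reason. The sign of Acp1 in the count for the telomere side is uncertain too. Of 10 measured partners of Odc1 and Adi1 in polyamine metabolism and methionine salvage none passed, and Smox (-0.34) and Sat1 (0.34) had an unadjusted p under 0.05.

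The span also holds 17 measured genes that are not listed. Of these 2 were lower and 1 was higher at an adjusted p under 0.05. Gm9866, a long non-coding RNA gene, is the measured gene next to Sox11 on the centromere side. It had 7.32, 7.62, 7.17 and 7.34 in the knockout arrays and 6.58, 6.63, 6.55 and 6.72 in the wild type arrays, and rose by 0.74 (SE 0.09, limma adjusted p = 0.00442), or 1.67-fold. Rrm2, a ribonucleotide reductase subunit, fell by 0.77 log2 units (limma adjusted p = 0.00220) and Gm5784 by 0.68 (limma adjusted p = 0.0265). Gm9866 and Rrm2 passed in each fit without 1 array, and Gm5784 in 2 of 8, those without wild type replicate 2 and without wild type replicate 4. Eipr1 (-0.21), 3110053B16Rik (-0.54) and 2410018L13Rik (-1.35) did not overlap between genotypes without passing (limma adjusted p = 0.150, 0.158 and 0.164). 2410018L13Rik had 6.03, 5.72, 6.03 and 5.93 in the knockout arrays and 6.14, 6.53, 7.83 and 8.60 in the wild type arrays. Its 2 highest arrays were wild type replicates 3 and 4. Gm5784, 2410018L13Rik and 3110053B16Rik are also named together with other genes on further probe sets of the annotation, so their values may read related copies.

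Shares of genes past the threshold were higher around Sox11 than on the rest of the chromosome. Without Sox11, 3 of the 20 measured genes within 10 places passed (15%), 5 of 40 within 20 places (12.5%) and 6 of 80 within 40 places (7.5%), beside 1.81% of 554 genes on chromosome 12 beyond 40 places and 1.40% of 18705 genes on other chromosomes. Arrays did not overlap for 25%, 25% and 21.2% of genes within 10, 20 and 40 places, beside 11.6% beyond 40 places and 10.4% on other chromosomes. Single chromosomes varied around the pooled shares. On chromosome 18, the highest, 4.75% of 463 genes passed and arrays did not overlap for 15.8%. With 1 array left out, the counts were 2 of 20 and 3 of 40 in each fit but that without wild type replicate 1, which gave 3 of 20 and 5 of 40, and 3 to 5 of 80 passed. In those fits 0.529% to 1.23% of all genes outside the nearest 40 passed. Of the 6 genes called within 40 places, 5 lie on the centromere side. These shares are nested and rest on few genes, linked genes are not independent of each other, and the differences between shares were not tested.

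**Figure D4:**
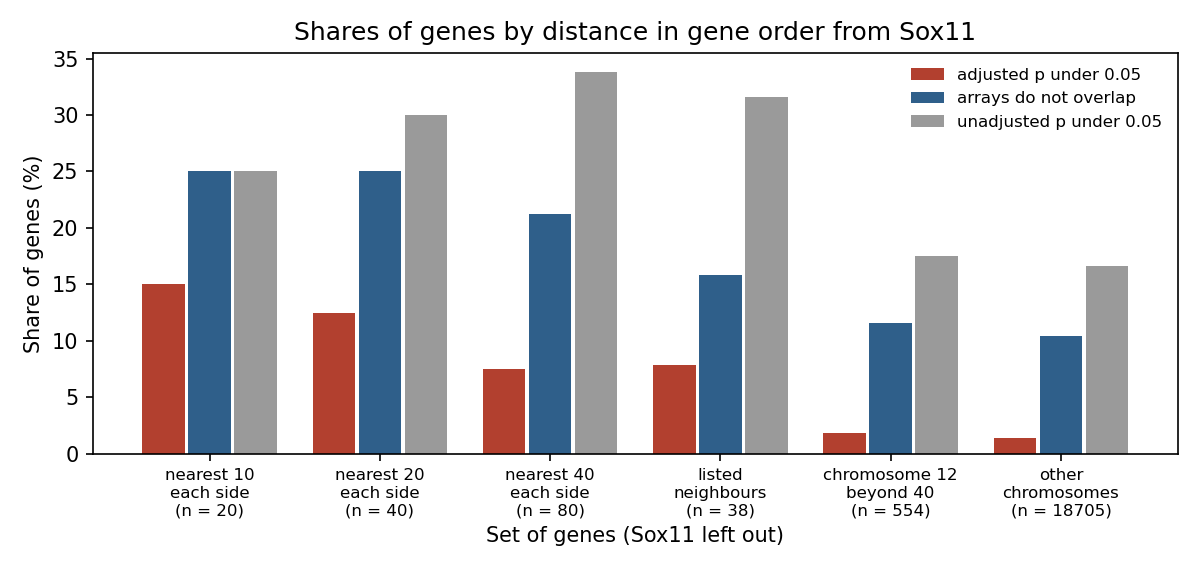
Share of genes (%) at an adjusted p under 0.05 (red), with arrays that do not overlap (blue) and at an unadjusted p under 0.05 (grey), for sets at growing distance in gene order from Sox11. Within 10 places 15% of genes passed, beside 1.40% on other chromosomes.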

How the data were processed

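Gene expression was measured on 8 arrays, 4 Sox11-/- and 4 wildtype. The deposited table holds 1 log2 signal per probe set and array for 27478 probe sets, made by the authors with RMA, with Partek also named, per the submitters' processing notes. RMA brings the distributions of the arrays close to each other, so a shift common to all genes cannot be seen, and it compresses low signals. The deposited distributions were not identical, with array medians of 7.29 to 7.31 and minima of 4.30 to 4.73. The sources used here do not state versions, filters or the genome build, and RefSeq's GRCm38.p6 table served for names and gene order. The 8 arrays limit the precision. Of the probe sets 21103 had 1 symbol. Where a gene had several, that of highest mean over the 8 arrays was kept.

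The comparison of genotypes used limma's lmFit and eBayes (version 3.58.1, R 4.3.3, two-sided) across all 19356 genes, with Benjamini-Hochberg adjustment and a threshold of 0.05. The fit was tested on simulated data. The members, lists and naming rule (members that pass, do not overlap, or lie among the 5 nearest on a side get every array's value) were chosen with earlier results of these data known. The labels call the replicates biological and independent without naming embryos or litters. Alternatives covered scaling, probe set choice, a filter on dim genes, the variance model, the replicate block, a Y-linked covariate, the threshold and leaving out each array. Probe sets with several symbols or none were left out. Deviations of same-numbered arrays had correlations of -0.17, 0.090, -0.040 and 0.062, beside -0.24 to 0.24 for arrays with different numbers. These values show no pairing by number, though so few cannot exclude one, and the main fit used none. Figures were drawn with matplotlib 3.10.9.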

Additional observations from a re-analysis of the deposited data

Results flagged for a closer look

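Values of 45 genes around Sox11 were screened for single arrays far from the other 3 of their genotype, and 4 of 90 groups held one, where chance gives about 1 in 20. Itgb1bp1 was 7.89 in knockout replicate 4, above 7.66 to 7.68 in the other knockout arrays and nearest to wild type. Allc, among the dimmest genes measured, was 5.41 in knockout replicate 2, below 5.51 to 5.53 in the others. 3110053B16Rik was 5.86 in knockout replicate 4, below 5.92 to 5.93 in the others. Tmem18 was 9.24 in wild type replicate 1, above 8.70 to 8.77 in the others.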

How the results depend on the processing

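Alkal2, Gm9866, Rrm2 and Sox11 passed under every alternative run. The count of 2 lower neighbours was 0 after a further quantile normalization, when every probe set was tested, with the replicate block and with a Y-linked covariate, and 0 to 2 without 1 array. The call of Asap2 and that of Rnf144a were thus lost while their differences stayed between -0.41 and -0.33 for Rnf144a and between -0.38 and -0.30 for Asap2 over all alternatives, beside -0.36 and -0.34, and the cause of the loss was not tested. The 1 higher neighbour was found in every fit. Without 1 array 6 to 12 neighbours had arrays that did not overlap (12 when knockout replicate 2 was left out, 11 when wild type replicate 2 was), where fewer arrays make overlap less likely. The median difference of the neighbours ran from -0.13 to -0.06 in these fits. Calls over all genes were 166 with the replicate block, 151 with the Y-linked covariate, 683 at an adjusted p under 0.1 and 107 to 243 without 1 array, beside 279. The sign turned for neighbours near 0: Sntg2 (-0.0046 after quantile normalization), Acp1 (-0.068 with the mean of its probe sets) and, without 1 array, Ntsr2 (-0.057 to 0.022), Taf1b (-0.0075 to 0.076), Atp6v1c2 (-0.12 to 0.00054), Odc1 (-0.068 to 0.0084), Tmem18 (-0.17 to 0.011), Sntg2 (-0.051 to 0.099) and Iah1 (-0.13 to 0.0099).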
